A study of Homo sapiens with 2 samples.

Results

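Among the treatment-naïve SUM159 cells grown attached, 176 of 5305 cells carried 3 or more CCL3 molecules (3.32%, 95% Clopper-Pearson interval 2.85 to 3.84), and these CCL3-high cells were compared with the other 5129 cells of the same population. The class was chosen on CCL3 alone, by counts of unique molecular identifiers (UMIs, 1 for each captured transcript). SUM159 is a human triple-negative breast cancer line, listed as wild type, with both epithelial-like and highly mesenchymal cells. A panel of breast cancer genes was counted in single cells on a BD Rhapsody cartridge. The treatment-naïve cells were untreated and shared their cartridge with cells made resistant to paclitaxel or to doxorubicin by rising doses, and a further cartridge held spheroid cells of the same 3 kinds, where the labels call the drug populations treated. All populations came from the same line, and each was measured once. The attached cells were kept in a medium with serum, insulin and hydrocortisone, while for the spheroids, grown on Matrigel, the study's methods name serum as the supplement. The population in each file was taken from the file's name, since the labels give the sample tags but do not tie them to files. The series holds 30122 cells in 6 populations.

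CCL3 is a CC chemokine that draws monocytes, macrophages and T cells. Macrophages and other activated leukocytes are its usual source, and NF-kB signalling drives it together with other chemokines, interleukins and PTGS2. The gene lies at chr17:36088256-36090143 (GRCh38, RefSeq), close to CCL4 at chr17:36103827-36105614 and on the same arm as CCL5 at chr17:35871491-35880360. It has near-identical copies, CCL3L1 and CCL3L3, and reads from the copies could have been counted as CCL3, so its values carry that uncertainty.

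All values below are UMIs of 1 library, and cells of 1 culture are not replicates. Differences are therefore given as sizes with 95% intervals that cover counting error only (exact Poisson for levels, conditional binomial for folds, Clopper-Pearson for shares), with no test. Levels are UMIs summed over cells and scaled to a total of 1000000 (CPM), with CCL3 left out of the sums and totals. A gene was measured with at least 50 UMIs in either set of cells, and counted as higher or lower at a fold of 2 or more with at least 50 UMIs in the higher set. Cell labels were not shared between files of the same cartridge, and 21 to 36 labels occurred in both files of each pair across cartridges. The attached files together hold more barcodes than the labels say were pooled, and all were counted as cells. Of the class, 4 cells had a label that also occurred in a spheroid file.

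CCL3 was unevenly spread within the class. The lowest cell had 3 CCL3 UMIs, the median cell 11, the upper quartile began at 35.25 and the highest cell had 543. The class held 6318 of the CCL3 UMIs, or 96.5%, the other cells held 231, and the 5 highest cells alone held 27.3%. No CCL3 UMI was found in 4931 of the other cells, and 198 had 1 or 2. At the edge of the rule, 31 cells had 3 UMIs and 33 cells had 2. The cells just inside and just outside were close in CCL5 (54254 and 51075 CPM), MYC (12413 and 12452 CPM) and SNAI2 (2420 and 2384 CPM), while IL7R was higher (422 and 109 CPM) and S100A9 lower (3595 and 7671 CPM) inside than outside. Cells on either side of the threshold were thus alike in some of the genes described below and not in others.

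The class was also deeper than the rest. The median CCL3-high cell had 5125 UMIs without CCL3 (quartiles 3399.25 and 6675.75, range 1182 to 15343) against 3686 in the other cells (2685 and 4921, range 1005 to 15786), a ratio of 1.39. In all, 936971 UMIs came from the class and 20479582 from the others. The median number of genes was 137 against 134. Of the class, 25 cells (14.2%) lay above the 95th percentile of UMIs of the population. The class made up 1.58% of cells (0.982 to 2.41) in the lowest quartile of depth, 2.41% (1.66 to 3.39) and 2.49% (1.72 to 3.48) in the middle quartiles, and 6.79% (5.49 to 8.28) in the highest. After every cell was thinned to 2000 UMIs, with 5 cells of the class and 506 others too shallow to keep, 118 of 4794 cells (2.46%) still had 3 or more CCL3 UMIs. Depth and CCL3 therefore moved together, and folds are given below within quartiles of depth as well. No doublet caller was run, and the part of doublets in the deepest cells was not tested.

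**Figure D1:**
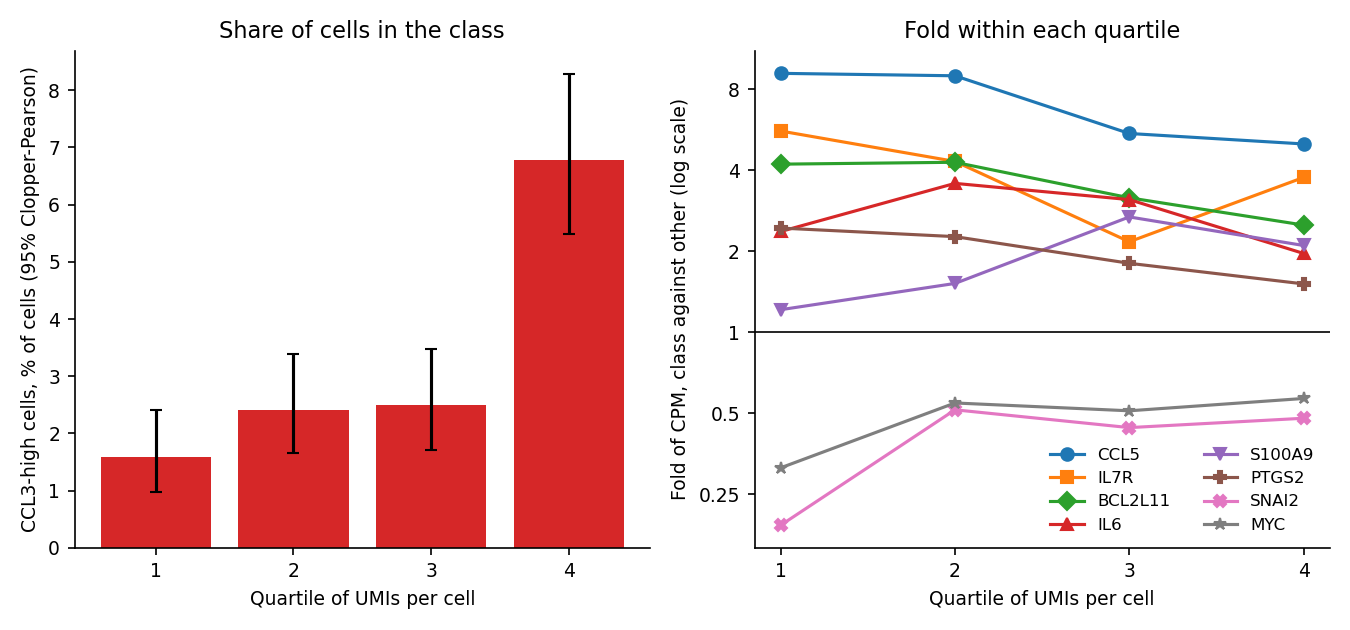
Left, the share of treatment-naïve attached cells in the CCL3-high class (%, bars with 95% Clopper-Pearson intervals) by quartile of UMIs per cell, from 1.58% in the lowest to 6.79% in the highest. Right, the fold of CPM between the class and the other cells within each quartile (log scale, line at 1); CCL5 stayed between 5.00 and 9.15, while MYC and SNAI2 stayed under 0.57.

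The markers named for the class were checked together with those of other cell types. S100A9, a subunit of the calcium-binding heterodimer calprotectin, was 2.32-fold higher (2.27 to 2.38), whereas CD14, a co-receptor for bacterial lipopolysaccharide, and PTGS2, the inducible cyclooxygenase of prostaglandin synthesis, were 1.85-fold (1.74 to 1.97) and 1.70-fold (1.67 to 1.72) higher and stayed under the fold of 2. Of the 12 myeloid markers checked, the file lists 6. CD163, LYZ, C1QA and PTPRC had no UMI in the class, which allows up to 3 UMIs, and the other listed markers, CD14 and FCGR3A, did have UMIs. The summed myeloid markers were at 1272 CPM in the class (0 to 20167 per cell) and 682 CPM in the other cells (0 to 30908). FCGR3A, the low-affinity Fc receptor CD16, had 20 UMIs in 7 cells of the class, of which 90% were in 5 cells. The other cells had 99 UMIs of it, a ratio of 4.42 (2.59 to 7.19) on a class count under the minimum of 50. Unthinned, FCGR3A was found in 3.98% of the class and 0.351% of the other cells. T and NK markers summed to 4.27 and 7.57 CPM in the class and the other cells, B and plasma cell markers to 3.20 and 4.59 CPM, and VWF, the only endothelial marker listed, had no UMI in the class. All 7 carcinoma and basal markers were present, at 50179 CPM summed over the class and 73614 CPM in the other cells, and every cell of the class had at least 7967 CPM of them. VIM (32936 CPM) and CD44 (9508 CPM) made up most of the sum in the class, so it says little of the others. Unthinned, TP73 was found in 65.3% of the class and 73.0% of the other cells, and CDH3 in 18.2% and 19.8%. After thinning to 2000 UMIs, TP73 was found in 47.4% and 59.8%, and CDH3 in 9.94% and 14.1%. The class thus held UMIs of all 7 markers. CD163, LYZ, C1QA, PTPRC and VWF were near absent from the other cells too, with 1, 14, 9, 5 and 17 UMIs in 5129 cells. Their absence therefore does not set the class apart. By the size rule, the inflammatory markers named for the class were met by S100A9 alone.

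A UMI of these markers was also found in a larger share of the class than of the other cells, many of which held one too. After thinning to 2000 UMIs, 50.9% of the class (43.1 to 58.6) and 33.3% of the others (31.9 to 34.7) had a CD14 UMI, against 63.6% and 42.7% unthinned. PTGS2 was found in 98.2% (94.96 to 99.6) and 91.7% (90.9 to 92.5), and in 100% and 94.9% unthinned. S100A9 was found in 70.2% (62.7 to 76.9) and 49.4% (47.9 to 50.8), and in 77.3% and 56.0% unthinned. These are all carcinoma cells of 1 line, so no cell type that should lack the markers was at hand for a background. Free RNA on the cartridge could add single UMIs, and its part in these shares was not tested.

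Of 252 measured genes, 9 (3.57%) were higher in the CCL3-high cells and 21 (8.33%) were lower. The higher genes were CCL5, ANGPT1, IL7R, IL12A, BCL2L11, IL6, LGALS9, S100A9 and KRT81. The 12 lower genes with at least 10 UMIs in the class were AREG, CDH6, CXCL12, CDCA7, ABCG2, SNAI2, NRG1, KRT14, CAV1, MYC, FOXO1 and THBS1. Of the 21 lower genes, 14 had an interval that did not include 1 and 9 had fewer than 10 UMIs in the class. Ratios under 1 were the rule, at 186 of the 252 measured genes (73.8%). The balance of directions depended on the scaling. Over all measured genes the log2 fold had a median of −0.29 as CPM and 0.09 as UMIs per cell without scaling, where 14 genes were higher and 8 lower. The setting without scaling keeps the greater depth of the class. As CPM with the other cells weighted to the depth of the class, the median was −0.30, with 9 genes higher and 19 lower. CCL5 and CXCL8 alone took 22.9% of the UMIs of the class and 12.9% of those of the other cells, and with both left out of the totals the median was −0.12, with 10 genes higher and 13 lower. Higher genes were 30% of the calls as CPM, 63.6% without scaling and 43.5% without those 2 chemokines in the totals. Folds near the median of −0.29 are thus not read as lower in the text.

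Chemokines were led by CCL5. CCL5, the CC chemokine RANTES that draws T cells and monocytes, was at 77157 CPM in the class and 12842 CPM in the other cells, a 6.01-fold difference (5.96 to 6.06). Per cell, CCL5 ranged in the class from 0 to 368299 CPM with a median of 41673, and in the other cells from 0 to 508321 CPM with a median of 772. The distributions overlapped, yet 75 cells of the class (42.6%, 35.2 to 50.3) exceeded the 95th percentile of the other cells, and only 2 of the 176 cells had no CCL5 UMI. Within quartiles of depth the fold was 5.00 to 9.15. CXCL8, the neutrophil-attracting interleukin 8, was abundant in both sets, at 151537 and 116366 CPM (1.30-fold, 1.30 to 1.31). CCL4, a CC chemokine and the nearest neighbour of CCL3 among these genes, had 7 UMIs in 5 cells of the class and 5 UMIs in the other cells, a ratio of 30.6 (8.36 to 122) on counts under the minimum. CXCL12, the ligand of CXCR4, lay in the other direction, at 107 and 302 CPM (2.83-fold lower, 2.32 to 3.48). In the list of chemokines, 1 of 5 measured members was higher and 1 lower, with a median log2 fold of 0.38 against −0.29 for all genes.

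**Figure D2:**
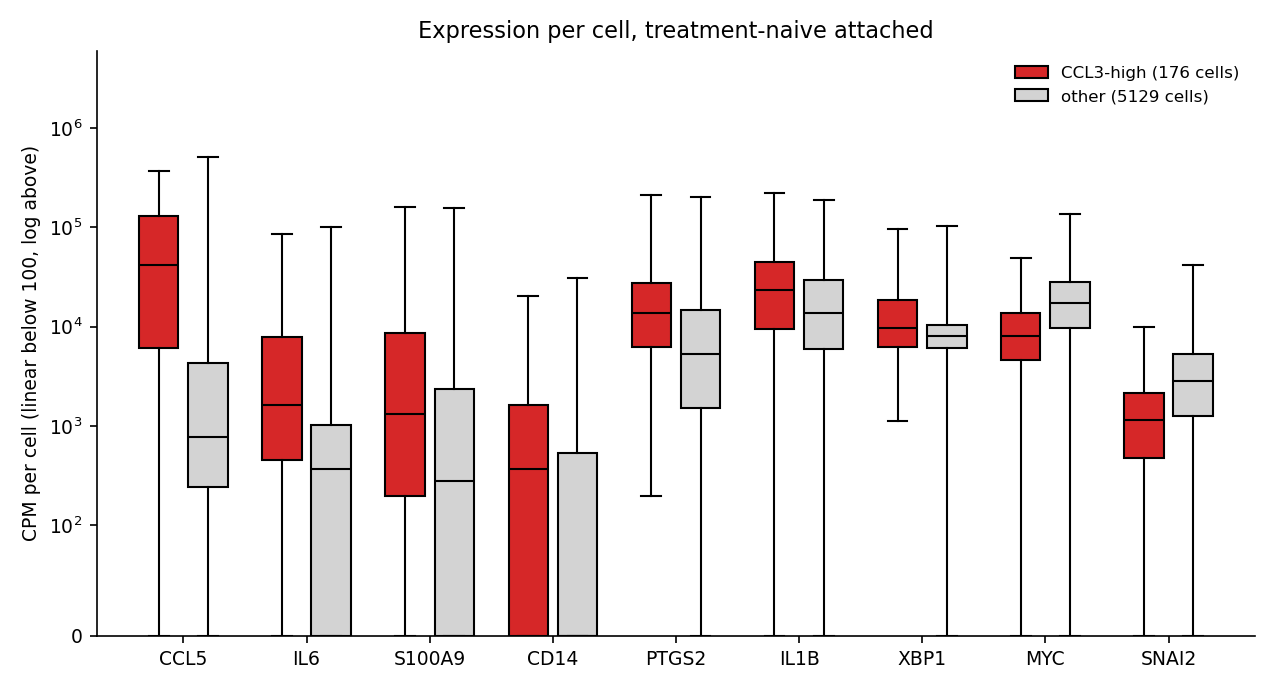
CPM per cell (linear below 100, log above) of 9 genes in the 176 CCL3-high cells (red) and the 5129 other treatment-naïve attached cells (grey); boxes span the quartiles with the median as a line, and whiskers reach the lowest and highest cell. The median of CCL5 was 41673 against 772 CPM and that of MYC 8026 against 17432 CPM, and the ranges overlapped for every gene drawn.

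Seen from CCL5, the class was concentrated among the cells with the most of it. Of the 955 cells with no CCL5 UMI, 0.209% (0.0254 to 0.754) were CCL3-high, and the share stayed at 0.943% or less up to the middle of the CCL5 ranking and just beyond. It was 2.83% (1.59 to 4.63), 3.39% (2.02 to 5.30) and 6.23% (4.32 to 8.63) in the next groups of the ranking, of about equal size, and 17.5% (14.4 to 21.0) in the highest, where 93 of 531 cells belonged to the class. Most cells rich in CCL5 were therefore not CCL3-high at this depth.

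**Figure D3:**
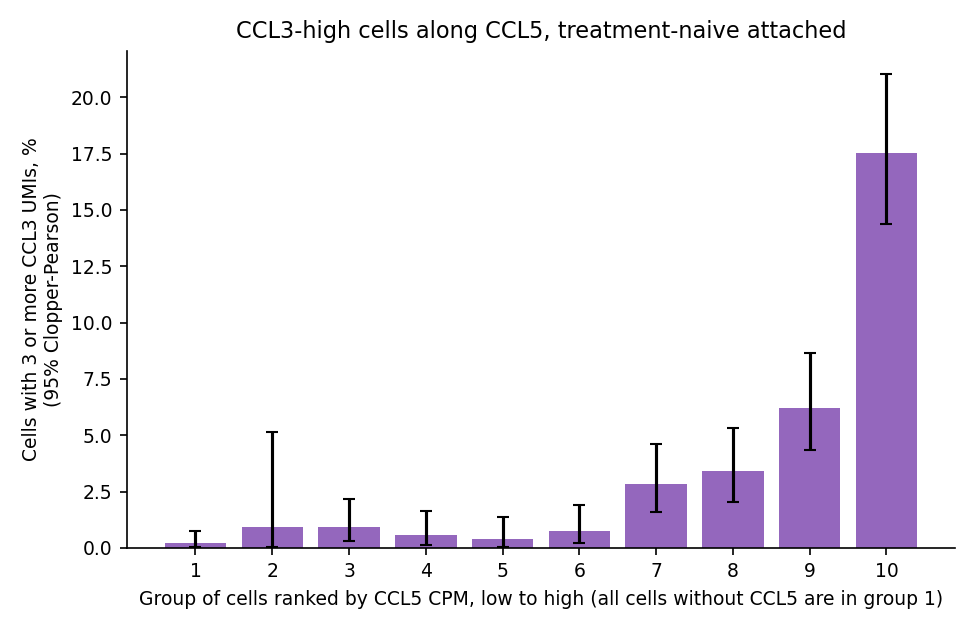
Share of treatment-naïve attached cells with 3 or more CCL3 UMIs (%, bars with 95% Clopper-Pearson intervals) in 10 groups of cells ranked by CCL5 CPM, with all cells without CCL5 in group 1. The share was 0.209% in the first group and 17.5% in the last.

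Interleukin genes and an interleukin receptor made up 3 of the 9 higher genes. IL6, the cytokine of the acute phase response, was at 6327 CPM in the class and 2543 CPM in the other cells (2.49-fold, 2.42 to 2.56), with a median of 1615 against 369 CPM per cell and a fold of 1.96 to 3.57 within quartiles of depth. IL12A, which encodes the p35 subunit shared by interleukins 12 and 35, was at 176 and 53.6 CPM (3.28-fold, 2.77 to 3.87), with UMIs in 49 of the 176 cells. IL7R, the receptor chain for interleukin 7 that lymphocytes depend on, was at 728 and 186 CPM (3.92-fold, 3.60 to 4.25). It was found in 99 cells of the class, 27.3% of the class (20.8 to 34.5) exceeded the 95th percentile of the others, and its fold within quartiles was 2.17 to 5.59. IL1B, the secreted mediator of inflammasome activity, was at 37731 and 23431 CPM (1.61-fold, 1.59 to 1.63) and did not reach the fold of 2. IL18, released in the same way, was lower by less than 2-fold at 684 and 982 CPM (a ratio of 0.697, 0.643 to 0.754). TNF had 1 UMI in the class. The list of inflammatory cytokines thus had 2 of 10 measured members higher and 1 lower, the last being TNF on that single UMI, and its median log2 fold was 0.66 (1.07 without scaling).

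CASP5, an inflammatory caspase that senses lipopolysaccharide inside the cell, fell just outside the count minimum and was singled out after its values were seen. It had 49 UMIs in 24 cells of the class and 226 in the other cells, a ratio of 4.74 (3.41 to 6.48), and 61.2% of the 49 UMIs were in 5 cells.

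Of the 4 measured prostaglandin and calprotectin genes, 3 lay above 1 and 1 of them past the fold of 2, and PTGDS had no UMI in the class. S100A9 was at 9633 and 4144 CPM, with per-cell medians of 1319 and 277 CPM and a highest cell of 160131 CPM. Its fold was 1.21 and 1.52 in the lower quartiles of depth and 2.68 and 2.10 in the higher ones, and 33.0% of its UMIs in the class came from 5 cells. S100A8, the partner subunit, was at 91.8 and 53.9 CPM (1.70-fold, 1.35 to 2.12). PTGS2 was at 19452 and 11452 CPM, with per-cell medians of 13841 and 5357 CPM. PTGS2 differed more in shallow than in deep cells, from 2.44-fold in the lowest quartile to 1.51-fold in the highest. The median log2 fold of this list was 0.77, and without scaling 3 of its 4 members passed the fold of 2.

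BCL2L11 and ANGPT1 were also among the higher genes, whereas XBP1 stayed under the fold of 2. BCL2L11, which encodes the pro-apoptotic protein BIM, was at 521 and 183 CPM (2.85-fold, 2.59 to 3.13), in 108 cells of the class, with a fold of 2.50 to 4.28 within quartiles. ANGPT1, the ligand of the endothelial receptor TIE2, had 59 UMIs in 27 cells of the class, at 63.0 and 10.8 CPM (5.84-fold, 4.30 to 7.81), and was the 1 of 5 measured angiogenic factors to pass the rule. XBP1, a transcription factor of the unfolded protein response and of secretory cells, was at 15457 and 9163 CPM (1.69-fold, 1.66 to 1.72). The per-cell medians lay closer together (9759 and 7979 CPM), yet 55 cells of the class (31.3%, 24.5 to 38.7) exceeded the 95th percentile of the others, so XBP1 was high in a subset.

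LGALS9 and KRT81 passed the rule on few cells. LGALS9, the galectin 9 ligand of the checkpoint receptor TIM-3, was at 131 and 56.4 CPM (2.33-fold, 1.92 to 2.81), with 47.2% of its 123 UMIs in 5 cells, and its ratio was 0.777 and 0.763 in the lower quartiles of depth. KRT81, a hair keratin with closely similar relatives, was at 76.8 and 34.1 CPM (2.25-fold, 1.74 to 2.88), with 79.2% of its 72 UMIs in 5 cells. With a threshold of 10 CCL3 UMIs its ratio was 0.958. For both genes a handful of cells set the value.

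MYC, CAV1 and SNAI2 were lower in the class, and almost none of its cells was high in them. MYC, the transcription factor of growth and proliferation, was at 9951 and 20187 CPM (2.03-fold lower, 1.99 to 2.07), with per-cell medians of 8026 and 17432 CPM. No cell of the class exceeded the 95th percentile of the other cells for MYC, which allows a share of up to 2.07% by the Clopper-Pearson bound. SNAI2, the repressor Slug of epithelial genes, was at 1796 and 3862 CPM (2.15-fold lower, 2.05 to 2.26), and again no cell exceeded that percentile. CAV1, the coat protein of caveolae, was at 2969 and 6213 CPM (2.09-fold lower, 2.02 to 2.17), and 1 cell did. Within quartiles of depth the ratios were 0.314 to 0.568 for MYC, 0.192 to 0.515 for SNAI2 and 0.251 to 0.563 for CAV1. Without scaling the ratios were 0.657, 0.620 and 0.637, which kept the direction but not the fold of 2.

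AREG, the EGF receptor ligand amphiregulin, was 3.68-fold lower (3.41 to 3.98), at 714 and 2627 CPM. It was found in 37.5% of the class and 54.7% of the other cells, and in 25.7% and 47.3% after thinning to 2000 UMIs. Its per-cell median was 0 against 227 CPM, and 48.4% of its UMIs in the class were in 5 cells. CDH6, the kidney cadherin, was at 35.2 and 123 CPM (3.50-fold lower, 2.49 to 5.09). ABCG2, the efflux pump BCRP, was at 56.6 and 129 CPM, a ratio of 0.438 (0.327 to 0.575). CDCA7, a MYC-responsive gene of the cell cycle, had a ratio of 0.419 (0.319 to 0.541). NRG1, FOXO1 and THBS1 lay outside the rule for named genes and were singled out after their values were seen. NRG1, the growth factor neuregulin 1, had 10 UMIs in the class and a ratio of 0.472 (0.225 to 0.876). FOXO1, a forkhead transcription factor, was at 92.9 and 186 CPM, with a ratio of 0.498 (0.398 to 0.616) at the edge of the rule. HIC1, CD79A, CD38, NOTCH1, TNFRSF9, DKK1, TNF, MALAT1 and EGF had 1 to 4 UMIs in the class each, so these calls rested on near absence at this depth.

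All 10 measured basal epithelial genes had ratios under 1, as did 73.8% of all measured genes, and 1 of them, KRT14, passed the fold of 2 (median log2 fold −0.74, against −0.29 for all genes). KRT14, a keratin of basal cells, was at 1764 and 3696 CPM (2.10-fold lower, 2.00 to 2.20), and its ratio was 1.23 in the second quartile of depth. TP73, CDH3 and ITGA6, which mark the epithelial-like state of the line, had ratios of 0.581 (0.521 to 0.646), 0.572 (0.446 to 0.725) and 0.588 (0.554 to 0.624). Without scaling, 7 of the 10 members were under 1 and 2 above, and without CCL5 and CXCL8 in the totals 8 and 2. KRT17 was nearest to the other cells, with a ratio of 0.921 (0.903 to 0.939).

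Mesenchymal genes differed among themselves, with 3 of 18 measured members lower (CAV1, SNAI2 and THBS1) and none higher (median log2 fold −0.36). THBS1, the matrix glycoprotein thrombospondin 1, was at 223 and 446 CPM, a 2.00-fold lower level (1.74 to 2.31) that just met the rule, with a ratio of 0.666 without scaling. COL1A1, a fibrillar collagen, had a ratio of 0.660 (0.629 to 0.693) and PDGFRB, a platelet-derived growth factor receptor, 0.577 (0.507 to 0.653). COL3A1, the fibrillar collagen of the highly mesenchymal state, was at 2074 and 1960 CPM (1.06-fold, 1.01 to 1.11), although 64.2% of the class and 39.2% of the other cells had a UMI of it. After thinning to 2000 UMIs these shares were 50.3% and 30.1%. FN1, the matrix glycoprotein fibronectin, was at 31599 and 22952 CPM (1.38-fold, 1.36 to 1.39). Neither the epithelial-like nor the highly mesenchymal genes of the line were thus higher together in the class.

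Of the cell cycle genes, CDCA7 alone passed the fold of 2. All 17 measured G2/M and mitosis genes had ratios under 1, against 73.8% of all measured genes, with a median log2 fold of −0.51 against −0.29. Examples were CENPF, a kinetochore protein, at 0.579 (0.540 to 0.621), BIRC5, the apoptosis inhibitor survivin, at 0.634 (0.606 to 0.664), and NUSAP1, a spindle protein, at 0.803 (0.767 to 0.841), which is near the median of all genes. All 12 G1/S and replication genes had ratios under 1 as well (median −0.38), such as MYBL2 at 0.586 (0.537 to 0.639) and CDK2 at 0.875 (0.807 to 0.948), but their median lay close to that of all genes, CDK2 lay above it, and the list is not read as lower. The counts under 1 changed with the scaling. Without scaling, which keeps the greater depth of the class, 13 of the 17 and 4 of the 12 were under 1, with medians of −0.10 and 0.04. With the other cells weighted to the depth of the class, the medians as CPM were −0.69 and −0.37.

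Some further named genes stayed under the fold of 2. IGFBP5 and IGFBP7, binding proteins of insulin-like growth factors, were at 1.07 (1.04 to 1.09) and 0.970 (0.955 to 0.985). PHGDH, the entry enzyme of serine synthesis, was at 3560 and 6849 CPM, a ratio of 0.520 (0.502 to 0.538) that came close to the rule. PVR, the ligand of TIGIT and DNAM-1, had a ratio of 0.512 (0.467 to 0.560).

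Levels of several of these genes differed in steps along CCL3 and not at 3 UMIs alone. CCL5 was at 11663 CPM in cells with no CCL3 UMI, 35389 with 1, 51075 with 2, 53650 with 3 to 4, 60135 with 5 to 9, 79378 with 10 to 29 and 107042 with 30 or more. MYC went from 20385 CPM with no CCL3 UMI to 12316 with 3 to 4 and 6940 with 30 or more, AREG from 2659 to 1062 and 477 CPM, and SNAI2 from 3914 to 2164 and 1165 CPM. IL7R was at 180 CPM with none, 431 with 3 to 4 and 1180 with 30 or more. The order was less regular for S100A9, at 4132, 4151 and 13655 CPM, and for KRT14, at 3742, 2093 and 2142 CPM. The median depth of these cells also went up, from 3664 UMIs with no CCL3 to 5401 with 30 or more, and its part was not tested.

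**Figure D4:**
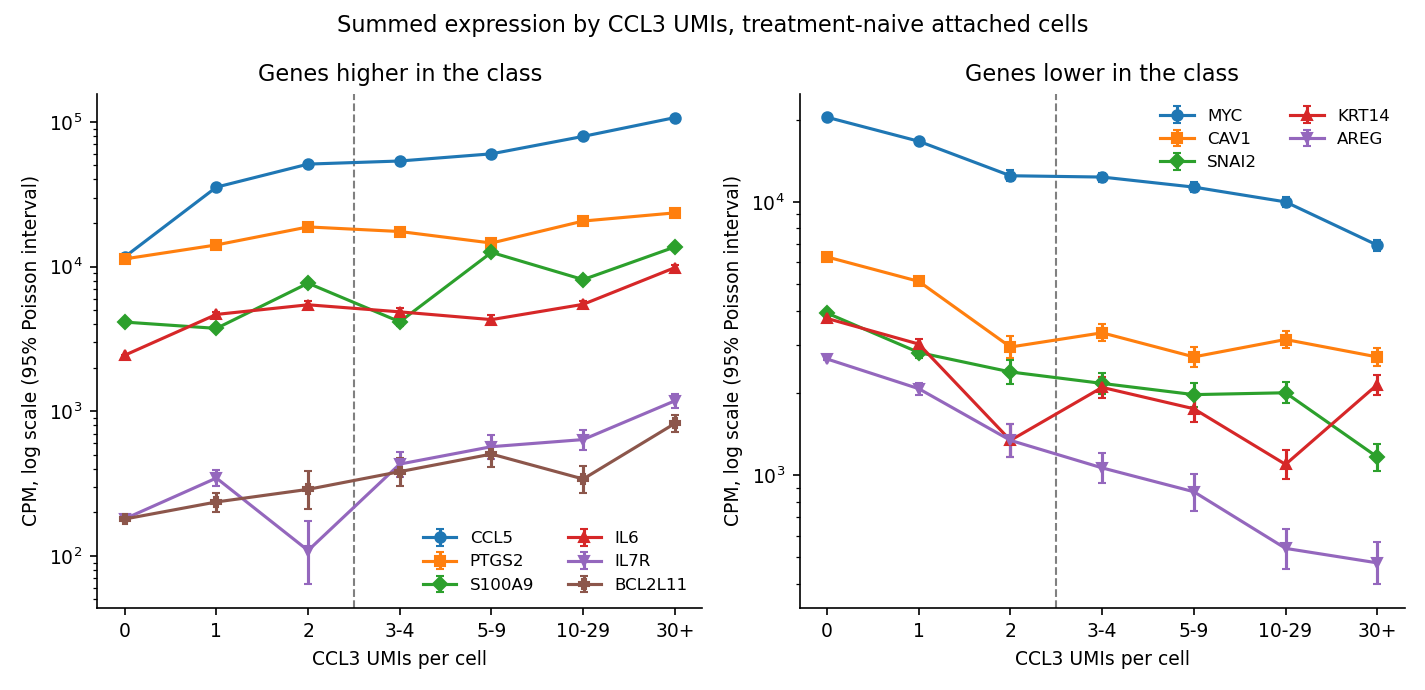
Summed CPM (log scale, 95% Poisson intervals) of genes higher (left) and lower (right) in the class, in treatment-naïve attached cells grouped by CCL3 UMIs; the dashed line marks the threshold of 3. CCL5 reached 107042 CPM and MYC 6940 CPM in the 47 cells with 30 or more CCL3 UMIs.

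The class was not uniform in its other genes. The 9 genes CCL5, IL7R, IL6, S100A9, PTGS2, CD14, IL1B, XBP1 and CXCL8 were each read as high in a cell above the 95th percentile of the other cells. Of the class, 29 cells (16.5%) were high in none of the 9, 48 in 1, 46 in 2, 30 in 3 and 23 (13.1%) in 4 or more. Of the other cells, 68.1% were high in none and 0.526% in 4 or more. The genes were chosen with their values known, so these shares describe how far the markers met in the same cells.

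Parting the class by CCL5 set some genes together and others apart. The 75 cells above the CCL5 percentile had a median of 23 CCL3 UMIs and 4918 UMIs in all, and the other 101 had 8 and 5128. In the CCL5-high cells IL7R was 5.20-fold (4.31 to 6.31), BCL2L11 3.09-fold (2.54 to 3.77), IL12A 2.61-fold (1.88 to 3.68), XBP1 2.51-fold (2.42 to 2.60) and IL6 2.48-fold (2.35 to 2.62) higher than in the rest of the class. ANGPT1, at 4.75-fold (2.52 to 9.59), and LGALS9, at 2.50-fold (1.70 to 3.71), were higher there too, while KRT81 had a ratio of 0.242 (0.115 to 0.464). S100A9 was level (1.02, 0.978 to 1.06), and PTGS2 and CD14 had ratios of 0.675 (0.654 to 0.696) and 0.699 (0.618 to 0.789). CCL5 itself stayed in the totals, at 157860 CPM in the CCL5-high cells and 17073 CPM in the rest of the class. That lowers the ratio of every other gene, and ratios without CCL5 in the totals were not computed for this split. Within the class, IL7R, ANGPT1, BCL2L11, IL12A, XBP1 and IL6 thus went with CCL5, and S100A9, PTGS2 and CD14 did not. LGALS9 (80 UMIs in the CCL5-high cells and 43 in the rest) and KRT81 (11 and 61) are not placed, since a handful of cells set their values.

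CCL3-high cells made up a smaller share of each of the other 5 populations. The same threshold was met by 132 of 7032 doxorubicin-resistant attached cells (1.88%, 1.57 to 2.22), 15 of 5896 paclitaxel-resistant attached cells (0.254%, 0.142 to 0.419), 37 of 4362 treatment-naïve spheroid cells (0.848%, 0.598 to 1.17), 36 of 3776 doxorubicin-resistant spheroid cells (0.953%, 0.669 to 1.32) and 1 of 3751 paclitaxel-resistant spheroid cells (0.0267%, 0.000675 to 0.148). Summed CCL3 was at 306 CPM in treatment-naïve attached cells, 194 in doxorubicin-resistant and 15.3 in paclitaxel-resistant attached cells, and at 124, 103 and 4.26 CPM in the spheroids in that order. The attached populations had like depths (medians of 3710, 3814 and 3653 UMIs), whereas the spheroid medians were 1538.5, 2340 and 1629 UMIs, and the part of depth in these shares was not tested. The paclitaxel-resistant attached cells shared cartridge and depth with the treatment-naïve ones and had a CCL3 UMI in 2.05% of cells, against 7.05%. Each population is 1 culture, so these differences have no replicate check.

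The doxorubicin-resistant attached cells, which the choice of the class did not use, gave a set of CCL3-high cells large enough for folds. Of 256 measured genes, 15 (5.86%) were higher and 9 (3.52%) lower in those 132 cells, whose median depth was 4157.5 UMIs against 3807. Of the 9 genes higher in the treatment-naïve class, 7 were above 1 there and 4 passed the rule in the same direction (CCL5, IL7R, IL12A and BCL2L11). Of the 21 lower genes 20 were measured, 14 lay below 1 and 2 passed. Over all 256 measured genes the log2 fold had a median of −0.013, so ratios below 1 were common among all genes. CCL5 was 30.9-fold higher (30.1 to 31.7), at 16411 and 531 CPM, although the per-cell medians were 430 and 199 CPM and 1 cell held 1957 of the 9757 UMIs. IL7R was 8.24-fold (7.54 to 8.99) and IL12A 4.64-fold (3.82 to 5.59) higher. CD14, PTGS2 and XBP1, which stayed under the fold of 2 in the treatment-naïve class, were at 2.70 (2.32 to 3.13), 3.19 (2.96 to 3.44) and 2.78 (2.72 to 2.85). IL6 was at 1.43 (1.40 to 1.46), S100A9 at 1.59 (1.19 to 2.09) and ANGPT1 at 0.993 (0.396 to 2.07). IL18, with a ratio of 0.697 in the treatment-naïve class, was 2.20-fold higher (2.10 to 2.30) here. CCL4 had 371 UMIs in 25 of the 132 cells and was 124-fold higher (102 to 151), where the treatment-naïve class had 7 UMIs. MYC and SNAI2 were nearer to 1 than in the treatment-naïve class, with ratios of 0.809 (0.793 to 0.825) and 0.855 (0.809 to 0.902). The difference between the populations was not tested for any gene.

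**Figure D5:**
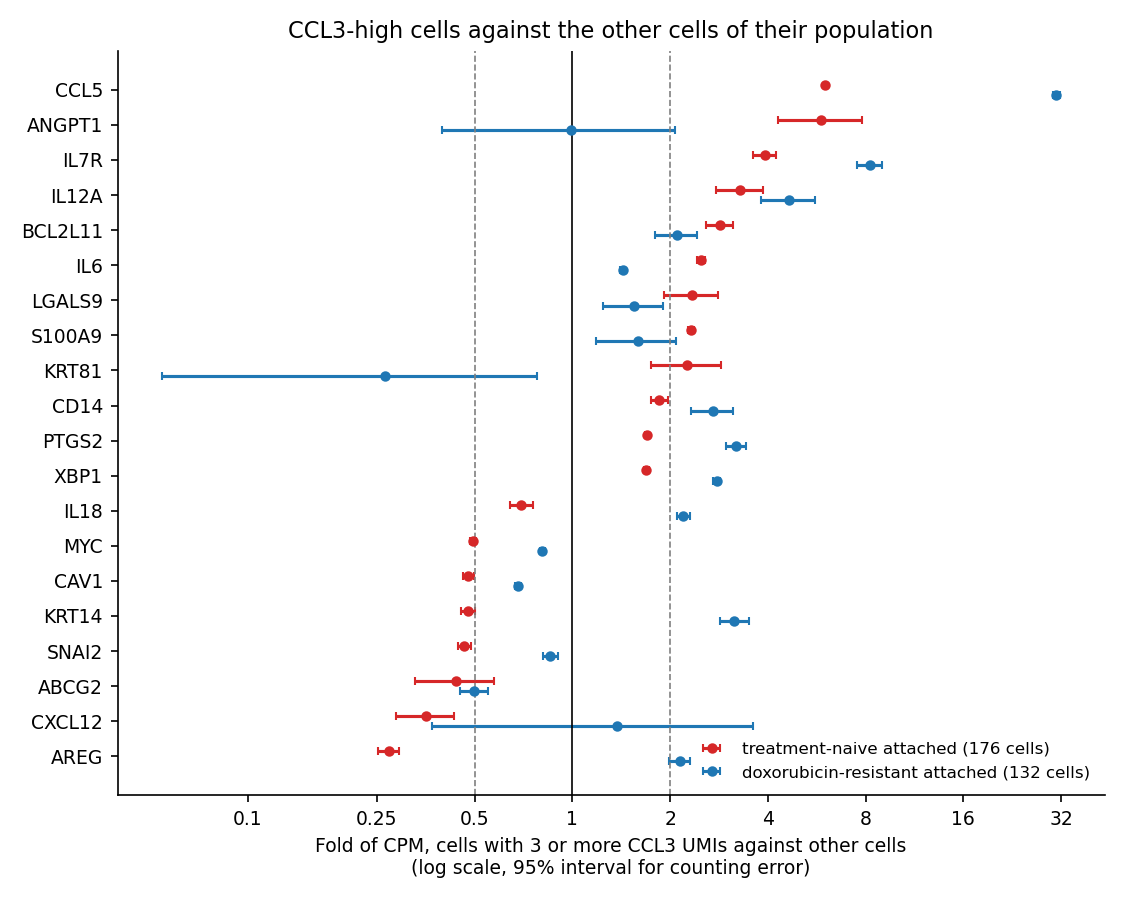
Fold of CPM (log scale, with 95% intervals for counting error) between cells with 3 or more CCL3 UMIs and the other cells of the same population, for treatment-naïve (red, 176 cells) and doxorubicin-resistant (blue, 132 cells) attached cells; dashed lines mark a fold of 2. CCL5 lay at 6.01 and 30.9, and AREG and KRT14 lay on opposite sides of 1.

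In the remaining populations the cells were few. Folds for the 37 treatment-naïve and 36 doxorubicin-resistant spheroid cells were added after the cell numbers were seen, and those cells were much deeper than the rest (medians of 4946 against 1506 UMIs and 4123 against 2323.5 UMIs). CCL5 was 8.34-fold (8.20 to 8.49) and 40.4-fold (39.0 to 41.9) higher, IL7R 3.53-fold (2.91 to 4.24) and 6.68-fold (5.64 to 7.86), and BCL2L11 3.53-fold (2.80 to 4.40) and 3.50-fold (2.66 to 4.52). IL7R had 122 UMIs in 12 of the 37 treatment-naïve cells, with 64 in the highest cell, and 159 in 25 of the 36 doxorubicin-resistant cells. CCL5 was found in all 37 treatment-naïve cells. In the doxorubicin-resistant cells it had 4680 UMIs in 24 of the 36, with 1252 in the highest cell. CD14 was at 2.37 (2.06 to 2.72) and 2.50 (2.05 to 3.03), and S100A9 at 2.73 (2.71 to 2.76) and 2.04 (1.99 to 2.10). MYC was at 1.05 (1.01 to 1.08) and 1.44 (1.38 to 1.50) and SNAI2 at 0.930 (0.878 to 0.983) and 0.860 (0.781 to 0.944).

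Some genes lower in the treatment-naïve attached class were also lower in the treatment-naïve spheroid cells with 3 or more CCL3 UMIs, where lower calls were frequent. Of 244 measured genes, 9 (3.69%) were higher and 61 (25%) lower there. Of the 21 lower genes of the attached class, 16 were measured, 12 lay below 1 and 7 passed the rule. Over all measured genes the log2 fold had a median of −0.325, so the 12 below 1 are not read as particular to these genes. CAV1 had a ratio of 0.202 (0.186 to 0.219), THBS1 0.204 (0.145 to 0.279), CXCL12 0.286 (0.211 to 0.378), ABCG2 0.147 (0.0591 to 0.304) and CDH6 0.447 (0.163 to 0.978), the last 2 on 7 and 6 UMIs. AREG was at 0.0232 (0.000587 to 0.129) on 1 UMI. In doxorubicin-resistant spheroid cells 16 of the 21 were measured, 9 lay below 1 and 2 passed. CAV1 was at 0.701 (0.662 to 0.742), ABCG2 at 0.389 (0.256 to 0.566) and THBS1 at 0.458 (0.357 to 0.578). Of all 247 measured genes 27 were lower, and the median log2 fold was −0.076. The counts of 9 and 2 lay near that background and are not read as particular to these genes. The deeper cells in these sets were not matched for depth.

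In paclitaxel-resistant attached cells, where 121 cells had at least 1 CCL3 UMI, CCL5 was 7.31-fold higher (7.04 to 7.60) and IL7R, IL6 and BCL2L11 were at 1.72 (1.26 to 2.28), 1.00 (0.963 to 1.05) and 1.00 (0.791 to 1.25). Of 244 measured genes, 3 were higher and 5 lower. Only 15 of the 121 cells had 3 or more CCL3 UMIs, against 176 of 374 such treatment-naïve attached cells. The sets below are thus unlike in CCL3, and the part of this was not tested. At the same threshold of 1 UMI, with 7 genes (2.78%) higher and 12 (4.76%) lower, the treatment-naïve attached cells gave 4.96 (4.92 to 5.00) for CCL5, 2.88 (2.68 to 3.09) for IL7R, 2.29 (2.24 to 2.34) for IL6 and 2.14 (1.97 to 2.32) for BCL2L11. CCL5 was the gene of these that lay above 4 wherever it was compared.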

How the data were processed

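Targeted single-cell RNA sequencing was performed on SUM159 cells with a breast cancer panel on 2 BD Rhapsody cartridges, with 3 tagged populations each. The authors deposited raw counts of UMIs per gene and cell, adjusted by RSEC on a cloud platform according to the study's methods. The submitters' processing notes name hg38. Filters on cells before deposit are not given in the sources used here. All deposited barcodes were used, without doublet removal. The matrix of treatment-naïve attached cells has 5305 cells and 333 genes besides CCL3.

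Members, gene lists and comparisons were chosen with earlier results of these data known. Counts were summed over the cells with 3 or more CCL3 UMIs and over the other cells, without CCL3, and scaled to 1000000 UMIs (CPM). A set with 0 UMIs was bounded at 3 counts. Genes named were the 15 largest folds in each direction past the rule (a fold of 2 with at least 50 UMIs), CD14, PTGS2 and S100A9, the state genes TP73, CDH3, ITGA6, COL1A1, COL3A1 and PDGFRB, and the highest and lowest members of each list, of which the text gives those with enough UMIs to read. CASP5, CCL4, IL1B, CXCL8, NRG1, FOXO1 and THBS1 were added by choice. A few of these genes are left out of the text. No p-value was computed, since there is 1 library per population. The intervals were checked on simulated independent Poisson counts only, which do not have the clustering of UMIs in a few cells seen for some genes. Alternatives changed the CCL3 threshold, the comparison cells, the minimum, the scaling, the depth and the cells kept, and thinning used a fixed seed. Python 3.11.15, NumPy 2.4.6, SciPy 1.17.1 and pandas 2.3.3 were used. Coordinates came from the RefSeq table of GRCh38.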

Additional observations from a re-analysis of the deposited data

Results flagged for a closer look

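AREG, KRT14 and KRT81 passed the size rule in opposite directions in the CCL3-high cells of the treatment-naïve and the doxorubicin-resistant attached population. The difference between the populations was not tested in any of the 3 cases, since each population is 1 culture. AREG had a ratio of 0.272 in treatment-naïve cells and was 2.14-fold higher (1.99 to 2.30) in doxorubicin-resistant cells. KRT14 had a ratio of 0.477 and was 3.16-fold higher (2.84 to 3.49) in the latter, and its ratio in the second depth quartile of the treatment-naïve cells was 1.23. KRT81 was 2.25-fold higher in treatment-naïve cells, with most of its UMIs in 5 cells, and had a ratio of 0.266 in doxorubicin-resistant cells, on 3 UMIs in the class and 548 in the others.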

How the results depend on the processing

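No paired analysis was possible because each population is 1 library and no test was run. The count of 9 higher genes was 14 at a minimum of 10 UMIs, 32 with no minimum (where higher genes were 59.3% of the calls) and 14 as UMIs per cell without scaling. The count of 21 lower genes was 12 with 1 or more CCL3 UMIs, 8 without scaling, 61 and 36 in the lowest and second quartiles of depth, where the class has 21 and 32 cells, and 13 without CCL5 and CXCL8 in the totals, an alternative chosen after seeing the data. Under the other settings, leaving out the 10 cells with the most CCL3 among them, both counts stayed within 1.5 times. Ratios crossed 1 for KRT81 (0.958 at 10 CCL3 UMIs, 0.270 in the third quartile), LGALS9 (0.777 and 0.763), and, within 1 quartile each, CD38 (2.80), FOXO1 (1.04), KRT14 (1.23), MALAT1 (1.61), NRG1 (1.18) and TNF (4.82). The cause was not tested.

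The share of the class was 7.05%, 3.94%, 2.45% and 1.81% at 1, 2, 5 and 10 CCL3 UMIs and 2.46% after thinning. At 1 UMI the other populations gave 3.94% (doxorubicin, attached), 2.70% (doxorubicin, spheroid), 2.05% (paclitaxel, attached), 0.693% (paclitaxel, spheroid) and 2.06% (treatment-naïve, spheroid). Thinned to 1000 UMIs and unthinned, CD14 was found in 40.9% and 63.6% of the class and 25.7% and 42.7% of the others, PTGS2 in 94.9% and 100% against 85.0% and 94.9%, and S100A9 in 41.3% of the others at 1000 UMIs, with 77.3% and 56.0% unthinned. Depth limits what is seen of genes with a few UMIs in 176 cells, and of CCL3 itself below 3 UMIs.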
